A study of Danio rerio with 15 samples.

Results

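Hypoxia-inducible factors (HIFs) are transcription factors that switch on genes for blood vessel growth, glycolysis, iron handling and matrix synthesis when oxygen is low. Each is a pair of an oxygen-sensitive alpha subunit and a stable beta subunit of the ARNT type. When oxygen is sufficient, prolyl hydroxylases of the EGLN (PHD) family mark the alpha subunit, and VHL, the recognition part of a ubiquitin ligase, directs it to degradation. The level of an alpha subunit is therefore set largely at the protein, which RNA sequencing does not measure, and several EGLN genes are themselves targets of HIF.

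The genes described here are hif1aa, hif1ab, epas1a, epas1b, arnt, arnt2, egln1a, egln2, egln3 and vhl, 10 names that were matched to the Ensembl IDs of the deposited table by their zebrafish symbol. Where the symbol table drops the letter of a duplicated gene, every ID with that symbol was taken, which gave 12 IDs of 22513 genes. HIF1A (ENSDARG00000034293) was taken for hif1ab. EPAS1 has 2 IDs (ENSDARG00000008697 and ENSDARG00000057671), and the table does not say which is epas1a. EGLN1 has 3 IDs (ENSDARG00000038996, ENSDARG00000004632 and ENSDARG00000105156), whereas the RefSeq gene table holds 2 egln1 genes; which of the IDs is egln1a is not given. The others are hif1aa (ENSDARG00000006181), arnt (ENSDARG00000021855), ARNT2 (ENSDARG00000103697), EGLN2 (ENSDARG00000062562), EGLN3 (ENSDARG00000032553) and vhl (ENSDARG00000070617).

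The study compared 7 zebrafish brain tumors driven by NRAS, a Ras GTPase of growth factor signalling, with 8 normal zebrafish brains by RNA sequencing. The tumors (libraries 5, 6, 7, 8, 12, 13 and 14) were dissected from tumor-bearing fish and are of the CNS-PNET type, an embryonal tumor with primitive neuroectodermal features. The normal libraries (1, 2, 3, 4, 9, 10, 11 and 15) were whole brains of control fish. The strain, age, any further alleles and the promoter driving NRAS are not stated in the labels used here, and no treatment is named for either group. The labels do not state that each library came from its own fish, so p-values measure the spread between these samples, which may be technical.

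Tumor libraries held 13605588 to 21347976 counts and normal libraries 14013245 to 18239799. A count of 3 then stood for 0.136 to 0.221 counts per 1000000 of the scaled library size (CPM), a limit that covers counting error only. Neuron markers (13 of 15 listed were found) summed to 515 to 2414 CPM in the tumors and 8569 to 9896 CPM in normal brain, and no marker of the tissue was at 0 in all libraries. Normal brains 1, 2 and 4 held the highest sums of hepatocyte, photoreceptor and epidermis markers, and brain tumor 13 had the fewest genes with a count. Calls that were lost without these 4 libraries are named beside the genes. In bulk tissue, fewer cells of a type and less RNA per cell cannot be told apart.

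Across the family EGLN3 was 9.03-fold higher and ARNT2 2.18-fold lower in the tumors, and these were the changes of over 2-fold. The arnt, alpha subunit, EGLN1 and EGLN2 IDs had fold changes under 2, in either direction, and vhl did not pass the test. All 12 IDs passed the filter on low counts. By edgeR's quasi-likelihood test with Benjamini-Hochberg adjustment over 19260 genes, 4 IDs were higher (HIF1A, EGLN3 and the EGLN1 IDs ENSDARG00000004632 and ENSDARG00000105156), 4 were lower (hif1aa, arnt, ARNT2 and EGLN1 ENSDARG00000038996) and 4 did not pass at an adjusted p below 0.05. Without tumor 6, 2 were lower. Of all tested genes 43.5% were higher and 33.4% lower, 76.9% in either direction, and the 8 called IDs of 12 are to be read against that share. ARNT2 was the only ID whose groups did not overlap, where 51.9% of all genes had groups without overlap (27.2% with every tumor above and 24.6% with every tumor below).

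Small rises depended on the scaling of the libraries. All tested genes had a median log2 fold change of 0.21 under trimmed-mean scaling but of 0.02 under median-ratio factors. The 12 IDs had a median of 0.12 under the first. With median-ratio factors EGLN3 alone of the 12 was higher and 4 were lower, where 37.7% of all genes were higher and 37.7% lower. With DESeq2 EGLN3 alone was higher and 5 were lower, where 36.7% of genes were higher and 35.4% lower. The authors' deposited table gave an adjusted p below 0.05 for 6 of the 12 IDs (72.2% of all its genes), with EGLN3 up (log2 fold change 2.86) and hif1aa, arnt, ARNT2, EGLN1 ENSDARG00000038996 and EPAS1 ENSDARG00000008697 down.

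**Figure D1:**
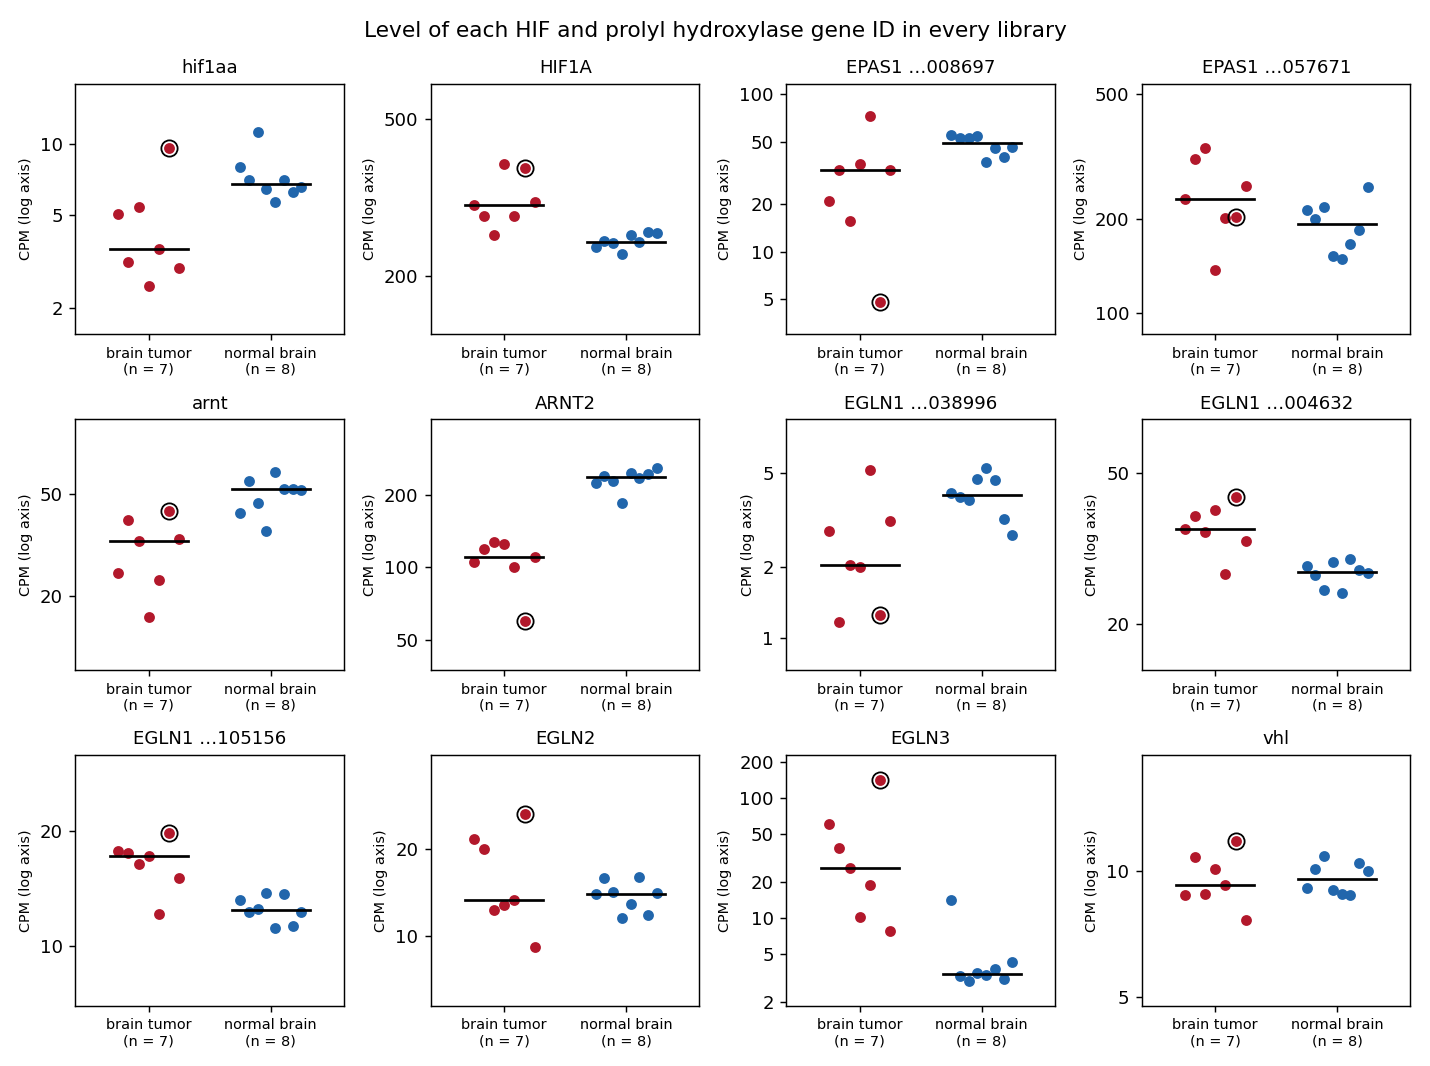
Level of each of the 12 gene IDs in every library, in CPM on log axes, for 7 brain tumors (red, left) and 8 normal brains (blue, right). Each point is a library, the bar is the group median and the ringed point is brain tumor 13. ARNT2 is the panel without overlap, and EGLN3 shows 5 tumors above all normal brains and normal brain 1 apart from the other 7.

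HIF1A, the zebrafish hif1ab, encodes the alpha subunit of HIF-1 and was the most abundant of the family. Its level was 254 to 383 CPM in the tumors (median 302 CPM) and 227 to 258 CPM in normal brain (median 244 CPM). Of the tumors 6 lay above every normal brain, with tumor 7 within the normal range. The log2 fold change was 0.35 ± 0.10 (SE; 1.27-fold, adjusted p = 0.00333), of which 0.14 was left after the median of all genes was subtracted. It did not pass with median-ratio factors (0.16, adjusted p = 0.185), with DESeq2 (0.15, adjusted p = 0.189), without normal brain 4 (0.24), without tumor 8 (0.21) or without the 4 libraries named above (0.25).

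hif1aa, the duplicate of that gene, was scarce. It had 2.48 to 9.57 CPM in the tumors (median 3.58) and 5.64 to 11.3 CPM in normal brain (median 6.77). All tumors but tumor 13 lay below every normal brain, and tumor 13, at 9.57 CPM, was above 7 of the 8. The fall had a log2 fold change of -0.67 ± 0.27 (adjusted p = 0.032), and it did not pass without normal brain 3 (-0.55), tumor 6 (-0.59) or tumor 12 (-0.61).

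Whether the duplicates' changes differed was tested on their ratio within libraries, which uses the same counts but in which the scaling has no part. The log2 ratio of HIF1A to hif1aa counts was 6.20 ± 0.68 in the tumors and 5.09 ± 0.33 in normal brain (SD, n = 7 and 8). The difference of 1.102, a 2.15-fold shift toward HIF1A, passed an exact two-sided permutation test over the libraries (p = 0.000777, 0.00187 adjusted over the 6 ratios compared).

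EPAS1, or HIF-2 alpha, is the alpha subunit best known from endothelium and from the control of erythropoietin. EPAS1 ENSDARG00000057671, the more abundant ID, had 137 to 336 CPM in the tumors (median 231 CPM) and 149 to 253 CPM in normal brain (median 192 CPM). The groups overlapped, and the log2 fold change of 0.32 ± 0.18 did not pass (adjusted p = 0.11). EPAS1 ENSDARG00000008697 had 4.79 CPM in tumor 13, 15.8 in tumor 7, 21.0 in tumor 5, 33.0 in tumor 6, 33.1 in tumor 14, 36.1 in tumor 8 and 73.2 in tumor 12, against 37.2 to 55.2 CPM in normal brain. Below every normal brain lay 6 tumors, and tumor 12 lay above them all.

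For that second EPAS1 ID the log2 fold change was -0.63 ± 0.37 (adjusted p = 0.128). It passed with DESeq2 (-0.84, adjusted p = 0.0327), with limma-voom (-0.94, adjusted p = 0.0334) and without tumor 12 (-0.998, adjusted p = 0.0107). The log2 ratio of EPAS1 ENSDARG00000057671 to ENSDARG00000008697 was 3.26 ± 1.35 in the tumors and 1.99 ± 0.28 in normal brain (SD, n = 7 and 8). That difference of 1.27 passed the exact permutation test (p = 0.0154, 0.0231 adjusted), but not without the 4 libraries (0.79, adjusted p = 0.214).

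The EPAS1 levels were set beside endothelial markers among the tumors. The 14 endothelial genes found of 15 listed (such as kdrl and cdh5) summed to 115 CPM in tumor 13, 124 in tumor 7, 143 in tumor 5, 179 in tumor 6, 231 in tumor 8, 285 in tumor 14 and 312 in tumor 12. In normal brain the sum was 180 to 228 CPM. EPAS1 ENSDARG00000008697 was lowest in tumor 13, where the sum was lowest, and highest in tumor 12, where it was highest. Over the 7 tumors, on log2 values, Pearson's r was 0.87 and Spearman's rho 0.96, and without tumors 12 and 14, the farthest from the median sum, r was 0.85 over 5 tumors. For EPAS1 ENSDARG00000057671 r was -0.34 and rho -0.36. These relations were chosen after the values were seen, so they are given as a description with no p, and whether the IDs differ in them was not tested. Epidermis markers (12 of 12 listed were found) placed the tumors in the same order as the endothelial sum did. They summed to 13.4 CPM in tumor 13 and to 1477 CPM in tumor 12. The relation by rank was therefore not particular to the endothelial sum. The parts of endothelial and epidermal cells in the EPAS1 levels were not tested.

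The beta subunits, shared partners of the alpha subunits, were both lower in the tumors. ARNT2, the form enriched in brain and neurons, had 105 CPM in tumor 5, 119 in tumor 6, 128 in tumor 7, 126 in tumor 8, 101 in tumor 12, 59.8 in tumor 13 and 110.1 in tumor 14. Normal brains 1, 2, 3, 4, 9, 10, 11 and 15 had 224, 241, 230.0, 185, 248, 236, 244 and 259 CPM. Every tumor lay below every normal brain. The log2 fold change was -1.13 ± 0.14 (2.18-fold lower in tumor, adjusted p = 1.98e-06), between -1.27 and -1.02 when libraries were left out 1 at a time.

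arnt, the widely expressed form, had 16.6 to 43.1 CPM in the tumors (median 32.9) and 35.9 to 60.98 CPM in normal brain (median 52.1). Of the tumors 5 lay below every normal brain. Its log2 fold change was -0.71 ± 0.18 (adjusted p = 0.00227) and passed in every alternative fit run. Whether ARNT2 fell by more than arnt was tested on their ratio, whose log2 was 1.84 ± 0.74 in the tumors and 2.24 ± 0.14 in normal brain (SD, n = 7 and 8). The difference of -0.40 did not pass the exact permutation test (p = 0.146, 0.175 adjusted), but it did without tumor 8 (-0.58, adjusted p = 0.003). Tumor 8 had the lowest arnt and tumor 13 the lowest ARNT2.

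The neuron marker sum moved with this fall and was lower in every tumor than in every normal brain. Among the tumors the sum was lowest in tumor 13 (515 CPM), which also had the lowest ARNT2, and highest in tumor 8 (2414 CPM). Within the tumors the relation of ARNT2 to the neuron sum had an r of 0.71 and a rho of 0.57 (exact permutation p = 0.0736 and 0.2; 0.172 and 0.4 adjusted). Neither passed, and without tumors 8 and 13 r was 0.13 over 5 tumors. For arnt r was -0.57 and rho -0.39 (exact permutation p = 0.18 and 0.396; 0.36 and 0.566 adjusted), and without tumors 8 and 13 the sign turned (r = 0.56, 5 tumors). These relations within the tumors were not among the planned tests, and their p-values are given as a description. The part of neurons in the lower ARNT2 and arnt was not tested.

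Among the prolyl hydroxylases EGLN3 stood out. EGLN3, or PHD3, hydroxylates HIF alpha subunits and is itself induced by HIF in mammalian cells. It had 60.9 CPM in tumor 5, 38.4 in tumor 6, 26.2 in tumor 7, 10.3 in tumor 8, 18.8 in tumor 12, 141 in tumor 13 and 7.76 in tumor 14. Normal brains 1, 2, 3, 4, 9, 10, 11 and 15 had 14.1, 3.27, 2.98, 3.49, 3.36, 3.79, 3.12 and 4.30 CPM. Tumors 5, 6, 7, 12 and 13 exceeded every normal brain, and tumors 8 and 14 exceeded all but normal brain 1.

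Its log2 fold change was 3.17 ± 0.59 (9.03-fold, adjusted p = 0.000137). Without tumor 13 it was 2.50 and without normal brain 1 it was 3.55. It was 2.93 without the 4 libraries and 2.95 without tumor 13 and normal brain 1, and it passed in each of these and in all 15 fits that left out 1 library. Normal brain 1, the highest normal value, was also the library with the most hepatocyte marker RNA (13860 CPM, against 2.36 to 69.5 in the tumors and 131 to 293 in the other normal brains). That every tumor lay above every normal brain without that library follows from the values above. Normal brain 1 was also the highest normal brain for the HIF targets NDRG1 ENSDARG00000032849 (47.8 CPM), ANGPTL4 (15.8 CPM), VEGFA ENSDARG00000034700 (33.4 CPM) and ca9 (3.35 CPM). The IDs of LDHA, PDK1 and SLC2A1 and the other VEGFA and NDRG1 IDs did not peak there, and PDK1 was lowest there (22.9 CPM). What set this library apart was not tested.

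EGLN1, or PHD2, is the main oxygen sensor of the family. EGLN1 ENSDARG00000004632 had 27.0 to 43.4 CPM in the tumors (median 35.7) and 24.1 to 29.6 CPM in normal brain (median 27.4). EGLN1 ENSDARG00000105156 had 12.1 to 19.8 CPM in the tumors (median 17.2) and 11.1 to 13.8 CPM in normal brain (median 12.4). For each, 6 tumors lay above every normal brain and tumor 12 within the normal range. Their log2 fold changes were 0.41 ± 0.10 (adjusted p = 0.00136) and 0.40 ± 0.11 (adjusted p = 0.0029), and neither passed with median-ratio factors (0.21 for both, adjusted p = 0.0769 and 0.102) or DESeq2 (0.21 and 0.20, adjusted p = 0.0826 and 0.109).

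The counts of these IDs kept nearly 1 ratio in all libraries. ENSDARG00000105156 had 0.432 to 0.497 of the counts of ENSDARG00000004632 in the tumors and 0.407 to 0.508 in normal brain. Whether they are pieces of 1 gene was not tested, and they may not be independent members. EGLN1 ENSDARG00000038996 was scarce and went the other way. Its level was 1.17 to 5.12 CPM in the tumors (median 2.03) and 2.72 to 5.26 CPM in normal brain (median 4.02), with 4 tumors below every normal brain. The fall of -0.69 ± 0.29 (adjusted p = 0.039) did not pass without normal brain 9 or 10, without tumor 6, 7 or 13, or without the 4 libraries (-0.55, adjusted p = 0.165).

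EGLN2, or PHD1, is the third hydroxylase. It had 9.17 to 26.5 CPM in the tumors (median 13.3) and 11.6 to 16.1 CPM in normal brain (median 14.04). Tumors 5, 6 and 13, the tumors with the highest EGLN3, lay above every normal brain and tumor 14 below, and the log2 fold change of 0.26 ± 0.20 did not pass (adjusted p = 0.239). The relation of EGLN2 to EGLN3 among the tumors was not tested.

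Within libraries the balance of the hydroxylases moved toward EGLN3. The log2 ratio of EGLN3 to the summed EGLN1 counts was -0.97 ± 1.37 in the tumors and -3.39 ± 0.70 in normal brain (SD, n = 7 and 8), a difference of 2.41 or 5.33-fold. The log2 ratio of EGLN3 to EGLN2 was 0.84 ± 0.96 in the tumors and -1.72 ± 0.73 in normal brain (SD, n = 7 and 8), a difference of 2.56 or 5.89-fold. Both passed the exact permutation test (p = 0.000932 and 0.000622, both 0.00187 adjusted). The ratio of EGLN2 to EGLN1 had a difference of -0.15 (-1.81 ± 0.46 in the tumors and -1.66 ± 0.19 in normal brain, SD) and did not pass (p = 0.423, 0.423 adjusted, exact).

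vhl, which encodes the protein that recognises hydroxylated HIF alpha, had 7.63 to 11.8 CPM in the tumors (median 9.24) and 8.77 to 10.9 CPM in normal brain (median 9.55). The groups overlapped throughout. Its log2 fold change was -0.01 ± 0.11 (adjusted p = 0.94) and ranged between -0.22 and 0.02 over all alternative fits, in none of which it passed. Of the 12 IDs it had the smallest absolute log2 fold change with the trimmed-mean scaling.

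**Figure D2:**
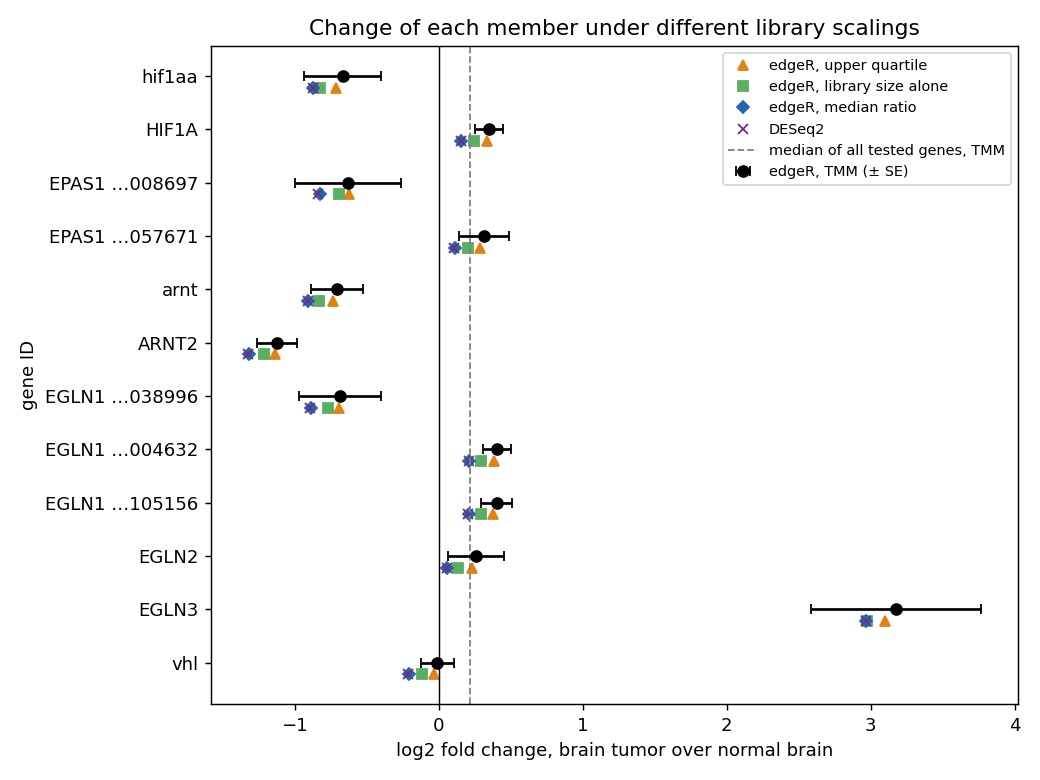
Log2 fold change of brain tumor over normal brain for each of the 12 gene IDs, by edgeR with trimmed-mean scaling (black, ± SE) and under 4 other scalings or tools (coloured). The dashed line is the median of all tested genes (0.21). The small rises of HIF1A and of a pair of EGLN1 IDs lie close to that line, while EGLN3, arnt and ARNT2 stay away from 0 under each scaling.

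**Figure D3:**
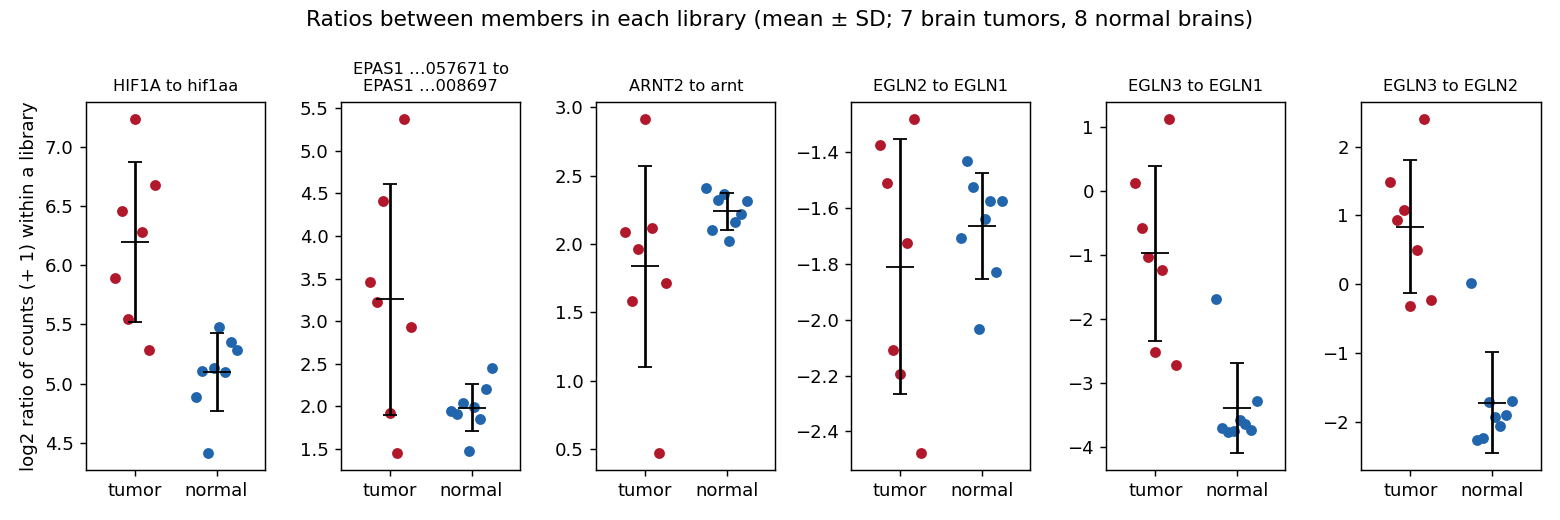
Log2 ratio of counts between members within each library, for 7 brain tumors (red, left) and 8 normal brains (blue, right), with mean ± SD. The y axes differ between panels. The groups overlap in all 6 ratios. The means of the HIF1A to hif1aa ratio, of the ratio between the EPAS1 IDs and of both EGLN3 ratios are higher in the tumors. The EPAS1 difference did not pass without normal brains 1, 2 and 4 and brain tumor 13.

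Levels of different genes were compared by the authors' FPKM, which divides by gene length. HIF1A led in both groups, at 68.1 ± 12.4 FPKM in the tumors and 57.4 ± 1.81 FPKM in normal brain (SD, n = 7 and 8). In the tumors EPAS1 ENSDARG00000057671 (26.6 FPKM), EGLN1 ENSDARG00000105156 (18.3 FPKM), EGLN3 (16.9 FPKM), EGLN1 ENSDARG00000004632 (14.8 FPKM) and ARNT2 (12.7 FPKM) followed, then vhl (7.74 FPKM), EPAS1 ENSDARG00000008697 (4.94 FPKM), EGLN2 (4.56 FPKM), arnt (4.003 FPKM), EGLN1 ENSDARG00000038996 (2.47 FPKM) and hif1aa (1.33 FPKM). In normal brain the order was ARNT2 (29.4 FPKM), EPAS1 ENSDARG00000057671 (23.0 FPKM), EGLN1 ENSDARG00000105156 (14.96 FPKM), EGLN1 ENSDARG00000004632 (12.04 FPKM), vhl (8.40 FPKM), EPAS1 ENSDARG00000008697 (7.97 FPKM), arnt (7.11 FPKM), EGLN1 ENSDARG00000038996 (4.24 FPKM), EGLN2 (4.15 FPKM), hif1aa (2.34 FPKM) and EGLN3 (2.15 FPKM).

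By these means EGLN3 held place 4 of 12 in the tumors and place 12 in normal brain, and ARNT2 place 6 in the tumors and place 2 in normal brain. In the tumors only HIF1A had a range apart from that of the next gene, and the other 10 neighbouring ranges overlapped. EGLN3 itself ran between 3.46 and 50.0 FPKM in the tumors, highest in tumor 13, and between 1.33 and 6.35 FPKM in normal brain. By the median of the tumors it held place 6 (9.67 FPKM, below the 13.4 FPKM of ARNT2), and it was below ARNT2 in 4 of 7 tumors and in 8 of 8 normal brains. In normal brain 3 neighbouring ranges were apart, those between HIF1A and ARNT2, between EPAS1 ENSDARG00000057671 and EGLN1 ENSDARG00000105156, and between EGLN1 ENSDARG00000004632 and vhl.

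Regulators that act around the HIFs moved in both directions. Of 25 tested IDs 12 were higher, 8 were lower and 5 did not pass (48% and 32%, beside 43.5% and 33.4% of all genes), with a median log2 fold change of 0.26. Of the higher ones 7 were left with median-ratio factors, with DESeq2, without normal brain 4, without normal brain 11 or without the 4 libraries. The share of all genes that were higher was 37.7% with median-ratio factors and 36.7% with DESeq2. For the fits without libraries that share is not given here.

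Enzymes that hydroxylate HIF alpha besides the EGLN family changed in opposite directions. HIF1AN (ENSDARG00000031915), the asparagine hydroxylase called factor inhibiting HIF, had 32.3 to 127 CPM in the tumors (median 46.0) and 25.3 to 31.2 CPM in normal brain (median 27.4). Every tumor lay above every normal brain, tumor 13 highest, with a log2 fold change of 1.02 ± 0.23 (adjusted p = 0.0008). P4HTM, a transmembrane prolyl hydroxylase that can act on HIF alpha in mammalian cells, has 2 IDs, and both fell without overlap. ENSDARG00000071233 had 7.13 to 11.03 CPM in the tumors and 22.6 to 27.6 CPM in normal brain (log2 fold change -1.51 ± 0.12), and ENSDARG00000075209 had 3.90 to 11.9 CPM in the tumors and 28.3 to 38.4 CPM in normal brain (-2.32 ± 0.21).

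Of 7 IDs for components of the VHL ubiquitin ligase, vhl included, 5 were higher and 2 did not pass, beside 43.5% of all genes higher. With median-ratio factors or DESeq2 2 were higher (RBX1 and eloca), beside 37.7% and 36.7% of all genes. RBX1, its RING subunit, rose (0.67 ± 0.13), and so did eloca (0.83 ± 0.18) and ELOC (0.33 ± 0.10) for elongin C and elob (0.32 ± 0.11) and ELOB (0.29 ± 0.11) for elongin B. CUL2, the scaffold, had a log2 fold change of 0.26 ± 0.13 (adjusted p = 0.0846). ELOC and both elongin B IDs did not pass with median-ratio factors or DESeq2, without normal brain 1, 2, 4 or 11 or without the 4 libraries (ELOC 0.25, elob 0.28 and ELOB 0.20, adjusted p = 0.0569, 0.0826 and 0.169), nor ELOC without tumor 8 or ELOB with library size alone (0.16). CUL2 passed without tumor 12 (0.33). vhll, a VHL-like gene, rose by 1.63 ± 0.32 at a low level, 1.67 ± 0.77 CPM in the tumors and 0.54 ± 0.15 CPM in normal brain (SD, n = 7 and 8).

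Other steps were split. RACK1, a ribosomal protein that can direct HIF-1 alpha to degradation independently of VHL, rose 5.89-fold (2.56 ± 0.18), with 1158 to 2975 CPM in the tumors and 292 to 356 CPM in normal brain. The ubiquitin-conjugating enzyme genes UBE2D1 (0.97 ± 0.11) and ube2d1b (0.64 ± 0.10) were higher in every tumor than in every normal brain, and USP20, a deubiquitinase that can protect HIF-1 alpha, fell (-1.31 ± 0.17), as did FKBP8 (-0.53 ± 0.10), a chaperone that binds PHD2. The coactivators CREBBP (-0.65 ± 0.10) and EP300 ENSDARG00000061108 (-0.47 ± 0.11) fell by small amounts, and EP300 ENSDARG00000100666 did not pass (-0.04 ± 0.10), though it passed as lower with median-ratio factors (-0.24, adjusted p = 0.0293) and DESeq2 (-0.24, adjusted p = 0.0143). SIAH1, which acts on EGLN proteins (0.26 ± 0.12), the deacetylase gene SIRT1 (0.10 ± 0.14) and CITED2, a competitor of HIF for its coactivators (-0.49 ± 0.24), did not pass either, though SIAH1 did without normal brain 9 or tumor 12 and CITED2 without normal brain 1, 2 or 4 or tumor 14. CITED2 also passed as lower with median-ratio factors (-0.68), DESeq2 (-0.69) and limma-voom (-0.61).

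Some paralogs within this list had opposite calls, while both IDs of UBE2D1, elongin B and elongin C were higher. cited4a, of the CITED family, fell 6.09-fold (-2.61 ± 0.32), with 2.28 to 19.6 CPM in the tumors and 62.0 to 87.5 CPM in normal brain, while cited4b rose (0.52 ± 0.20). Of the HIF-alpha-like genes hif1al rose (0.59 ± 0.19) and hif1al2 fell (-0.95 ± 0.34). The rises of cited4b and hif1al did not pass with median-ratio factors (0.32 and 0.39) or DESeq2 (0.31 and 0.39), or without normal brain 4 or 11. That of cited4b did not pass with library size alone (0.41) or without normal brain 1 or 2 or tumor 12 either. Without the 4 libraries none of cited4b (0.36), hif1al (0.50) and hif1al2 (-0.82) passed (adjusted p = 0.219, 0.0763 and 0.0914).

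Target genes of HIF were listed to set beside the family, and outside glycolysis they were divided. Of 56 tested IDs 25 were higher, 21 lower and 10 did not pass (44.6% and 37.5%, near the shares of all genes), with a median of 0.27. Among those higher without overlap were VEGFA ENSDARG00000034700, the vascular growth factor, ANGPTL4, a lipase inhibitor, and HMOX1, the haem oxygenase. That VEGFA ID had 78.4 to 204 CPM in the tumors and 26.0 to 33.4 CPM in normal brain (log2 fold change 2.16 ± 0.18). ANGPTL4 rose by 2.95 ± 0.48, or 2.32 without tumor 12 (24.8 to 247 CPM in the tumors and 5.93 to 15.8 CPM in normal brain) and HMOX1 by 2.54 ± 0.38 (9.93 to 44.1 CPM in the tumors and 0.89 to 5.44 CPM in normal brain). Microglia and macrophage markers (12 of 13 listed were found) summed to 1892 to 4185 CPM in the tumors and 682 to 1037 CPM in normal brain. Proliferation markers (10 of 10 found) summed to 1366 to 2881 CPM in the tumors and 92.7 to 141 CPM in normal brain. Neither sum overlapped between the groups, no marker of either list was at 0 in any tumor, and their part in the rises of target genes was not tested.

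The 8 tested IDs of this list for prolyl and lysyl hydroxylases of collagen and for lysyl oxidases (P4HA1, p4ha1a, P4HA2, PLOD1, PLOD2, LOX, loxl2a and LOXL2) rose, by log2 fold changes of 0.98 to 2.29. This subgroup was singled out after its values were seen, from a list of which 44.6% were higher, beside 43.5% of all genes. PLOD2 had 8.69 to 28.7 CPM in the tumors and 2.83 to 3.80 CPM in normal brain (2.23 ± 0.25). P4HA1 ENSDARG00000071082 (2.29 ± 0.52) had 51.0 CPM in tumor 13 and 33.7 CPM in tumor 5, the tumors with the highest EGLN3, and 5.61 to 14.9 CPM in the other 5, against 1.82 to 7.73 CPM in normal brain. That match with EGLN3 was picked out after the values were seen and was not tested.

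Other textbook targets fell. ca9, the carbonic anhydrase often used to mark hypoxia in human tumors, had 0.22 to 1.76 CPM in the tumors and 1.91 to 3.35 CPM in normal brain (-1.49 ± 0.35). SLC16A3 ENSDARG00000028583, which encodes the lactate exporter MCT4, fell by 2.47 ± 0.31 on the log2 scale, and PDK1, a brake on pyruvate oxidation, by 0.69 ± 0.12. The more abundant SLC16A3 ID, ENSDARG00000045051, did not pass (-0.84 ± 0.44, adjusted p = 0.0892). Its mean was 19.2 CPM in the tumors and 34.4 CPM in normal brain, and the groups overlapped. The STC2 IDs, for stanniocalcin 2, fell (-2.43 ± 0.37 for ENSDARG00000056680 and -2.63 ± 0.55 for ENSDARG00000102206, or -3.49 without tumor 8). STC2 ENSDARG00000102206 had only 0 to 0.59 CPM in the tumors and 0.73 to 1.71 CPM in normal brain, so its fold change rests on few reads. The fall of tfa, for transferrin (-6.27 ± 1.90), rested on normal brain 1, at 3221 CPM, and did not pass without it (-0.21).

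Glycolytic genes listed as targets were mostly lower. The list takes paralogs and tissue forms of the enzymes alike, and whether each is a target of HIF was not tested. Of 31 tested IDs 19 fell, 7 rose and 5 did not pass (61.3% lower, beside 33.4% of all genes), with a median of -1.24. Glucose enters by transporters of the SLC2A family, and slc2a3a fell to 22.4 to 62.8 CPM in the tumors, against 215 to 256 CPM in normal brain (-2.71 ± 0.22), while slc2a3b rose to 19.9 to 96.4 CPM in the tumors, against 7.23 to 14.3 CPM in normal brain (2.58 ± 0.32). HK2, a hexokinase, had the largest rise, with 21.1 to 93.9 CPM in the tumors and 2.22 to 5.75 CPM in normal brain (3.64 ± 0.31, 12.4-fold). LDHA, which makes lactate, fell (-0.76 ± 0.16), with 92.3 to 239 CPM in the tumors and 234 to 277 CPM in normal brain.

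Among the 5 largest glycolytic falls, beside slc2a3a, were forms known from nervous tissue. ALDOC, brain aldolase, fell in both IDs (ENSDARG00000057661, -3.25 ± 0.84, or -4.42 without tumor 8, and ENSDARG00000019702, -2.46 ± 0.19), and eno2, neuronal enolase, fell by 3.05 ± 0.30 on the log2 scale. PFKP ENSDARG00000028000, a phosphofructokinase, was the other (-2.27 ± 0.16). The neuron marker sum fell with them, as given above, and its part was not tested. Beside HK2 and slc2a3b the largest rises were in PFKM ENSDARG00000060797 (2.13 ± 0.79), PKM ENSDARG00000099860 (1.78 ± 0.74) and ENO3 (1.47 ± 0.32), of which PFKM and ENO3 are muscle forms. Skeletal muscle markers summed to 55 to 3026 CPM in the tumors and 34.1 to 402 CPM in normal brain. Their part in these rises, that of HK2 included, was not tested. PFKM and PKM did not pass with limma-voom (1.30 and 1.35), where 4 of the list were higher. PFKM did not pass without tumor 6 or 12 or without the 4 libraries, and PKM with median-ratio factors (1.56) or without any of 11 of the libraries left out 1 at a time.

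Of 25 target names with 2 tested IDs, 8 had an ID that rose and an ID that fell, 9 had both changed the same way (3 higher, 6 lower), and in 8 at least 1 ID did not pass. Of all 2402 gene names with 2 tested IDs by the same rule, 16.6% had 1 ID higher and 1 lower, a share given as a description with no test. NDRG1 was the sharpest case, a stress-responsive gene of myelinating glia and hypoxic cells. NDRG1 ENSDARG00000032849 rose to 53.6 to 194 CPM in the tumors, against 8.44 to 47.8 CPM in normal brain (3.12 ± 0.37), and NDRG1 ENSDARG00000010420 fell to 0.06 to 0.69 CPM in the tumors, against 1.91 to 3.70 CPM in normal brain (-3.13 ± 0.37). The falling ID had 1 to 13 counts in the tumors, below 3 in tumors 5, 6 and 13, and 31 to 61 in normal brain. Its fold change thus rests on few reads. Oligodendrocyte markers (10 of 10 listed were found) summed to 13280 to 44650 CPM in the tumors and 12810 to 19310 CPM in normal brain. The groups overlapped in this sum, and its part in the NDRG1 levels was not tested. SLC2A1, the glucose transporter of the blood-brain barrier, was another, with ENSDARG00000007412 higher (0.67 ± 0.14) and ENSDARG00000001437 lower (-1.34 ± 0.54), a fall that did not pass without normal brain 3, tumor 5 or tumor 6. Among the others were slc2a3, PKM, BNIP3L, CXCL12 and tfr1, of which the last 3 were named after their values were seen.

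**Figure D4:**
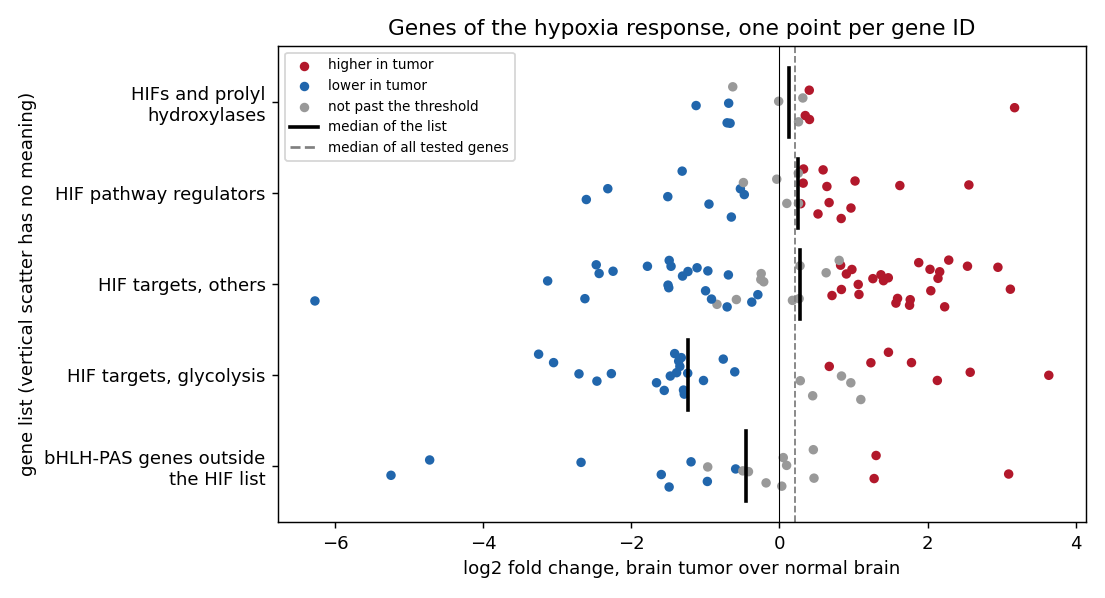
Log2 fold change of brain tumor over normal brain for each tested gene ID of the family and of 4 further lists, red where higher, blue where lower and grey where not past the threshold. Black bars are list medians and the dashed line is the median of all tested genes. The glycolysis list is centred at -1.24, and the other target genes spread to both sides around 0.27.

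Among the tumors the level of EGLN3 was set beside the 10 IDs of the textbook target names, on log2 values. These relations were not among the planned tests, and their p-values are given as a description. SLC2A1 ENSDARG00000001437 ran against it, with 79.1 CPM in tumor 8 and 50.7 CPM in tumor 14, where EGLN3 was lowest, and 10.3 CPM in tumor 5 and 0.66 CPM in tumor 13, where EGLN3 was highest. Pearson's r was -0.89 (exact permutation p = 0.00159, 0.0181 adjusted over the 14 relations computed within the tumors) and Spearman's rho -0.89 (p = 0.0123, 0.0574 adjusted) over 7 tumors. The 14 include the EPAS1 relations chosen after the values were seen, so the adjusted values depend on those as well. Without tumors 13 and 14 r was -0.93 over 5 tumors. The endothelial sum given above was also lowest in tumor 13, and its part in SLC2A1 was not tested.

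VEGFA ENSDARG00000103542, the VEGFA ID that did not pass between the groups (0.63 ± 0.34, adjusted p = 0.0984; it passed without tumor 8, at 0.72), had an r of 0.85 with EGLN3 and a rho of 0.86 (exact permutation p = 0.0161 and 0.0238; 0.075 and 0.0833 adjusted). It had 95.6 CPM in tumor 13 and 42.1 CPM in tumor 5, and 9.09 to 31.9 CPM in the other 5. For VEGFA ENSDARG00000034700, the ID that rose, r was -0.44 and rho -0.36 (exact permutation p = 0.323 and 0.444; 0.453 and 0.566 adjusted). PDK1 had an r of 0.81 and a rho of 0.89 (exact permutation p = 0.0292 and 0.0123; 0.102 and 0.0574 adjusted), with r 0.53 without tumors 13 and 14. ca9 had an r of -0.76 and a rho of -0.79 (exact permutation p = 0.0458 and 0.048; 0.128 and 0.134 adjusted), with r -0.45 without them.

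Of the 10 relations with EGLN3, that with SLC2A1 ENSDARG00000001437 alone had an adjusted exact permutation p below 0.05, by r and not by rho. As the relations were not planned, this too is a description. For the remaining targets r was 0.51 for NDRG1 ENSDARG00000032849, -0.54 for NDRG1 ENSDARG00000010420, 0.21 for SLC2A1 ENSDARG00000007412, -0.11 for ANGPTL4 and -0.05 for LDHA, with exact permutation p between 0.218 and 0.919.

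**Figure D5:**
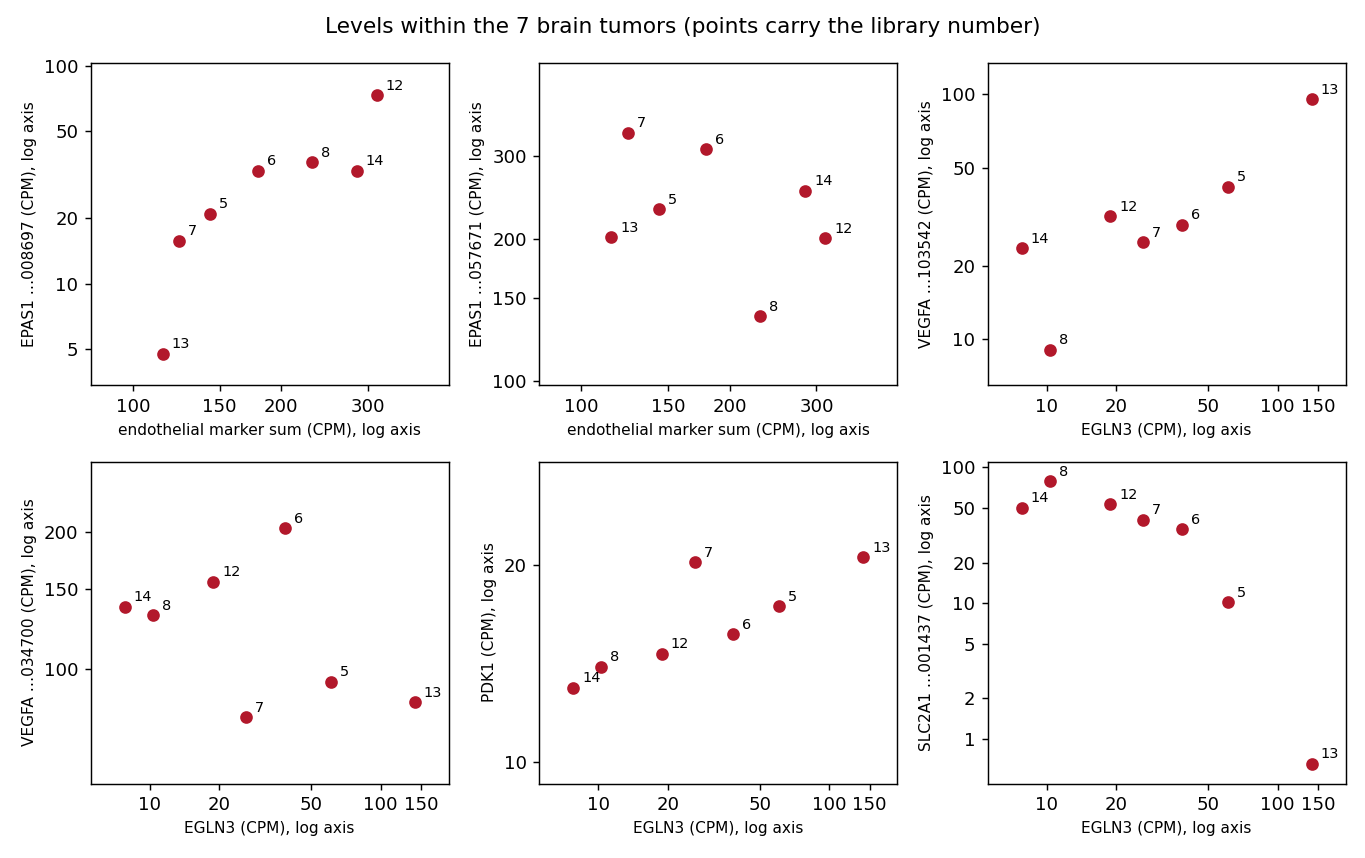
Levels within the 7 brain tumors in CPM on log axes, each point labelled with its library number. EPAS1 ENSDARG00000008697 is lowest in tumor 13 and highest in tumor 12, as is the endothelial marker sum, a relation chosen after the values were seen. The epidermis marker sum, not drawn, is lowest and highest in the same tumors. SLC2A1 ENSDARG00000001437 is lowest where EGLN3 is highest, in tumors 13 and 5.

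Other bHLH-PAS genes, the wider family of HIF alpha and ARNT to which clock and neuronal activity factors belong, followed. Of 20 tested IDs 8 fell, 3 rose and 9 did not pass (40% lower and 15% higher, beside 33.4% and 43.5% of all genes), with a median of -0.46. NPAS4, induced by neuronal activity, had the largest falls of the list. The neuron marker sum, 515 to 2414 CPM in the tumors and 8569 to 9896 CPM in normal brain, fell with the list's falling genes, and its part was not tested. NPAS4 ENSDARG00000055752 had 1.62 to 21.9 CPM in the tumors and 188 to 900 CPM in normal brain (-5.24 ± 0.53), and NPAS4 ENSDARG00000087753 fell likewise (-4.72 ± 0.53). npas2 (-2.68 ± 0.25) and PER2 (-1.59 ± 0.18), both of the circadian clock, and the coactivator NCOA1 (-1.49 ± 0.11) also fell without overlap.

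The rises were in ahr2, a dioxin receptor (57.7 to 157 CPM in the tumors and 39.3 to 51.9 CPM in normal brain, 1.28 ± 0.16), in bmal2, a clock factor that like ARNT is a beta partner (13.9 to 43.1 CPM in the tumors and 7.23 to 13.2 CPM in normal brain, 1.31 ± 0.22), and in sim1b (3.10 ± 1.06). The sim1b rise rested on tumor 14 (92.8 CPM) and tumor 8 (47.9 CPM), since the other 5 tumors had 0.07 to 1.39 CPM and normal brain 1.04 to 3.30 CPM. It did not pass without tumor 14 (1.74) or with limma-voom (0.47).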

How the data were processed

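Polyadenylated RNA of 7 brain tumors and 8 normal brains was sequenced with 50-cycle reads after TruSeq v2 library preparation, per the labels' protocols. This kit does not mark strand, so reads of a gene and of an overlapping antisense gene cannot be told apart. Novoalign 2.08.01 and DESeq2 were used, per the submitters' processing notes. The counter and the genome build are not given in the labels or file headers.

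The authors deposited whole read counts per gene, FPKM, a log2 fold change and its adjusted p-value. Here counts were fitted with edgeR 4.0.16 in R 4.3.3 (filterByExpr, minimum count 10 and total 15, leaving 19260 of 22513 genes; trimmed-mean scaling; quasi-likelihood test, group as the only term), with p-values adjusted by Benjamini-Hochberg over all tested genes. CPM use the scaled library sizes. Ratios are log2 of counts + 1, compared by exact permutation over libraries. Relations within tumors use log2 of CPM + 0.5.

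The alternatives were other scalings, no filter, DESeq2 1.42.0, limma-voom (limma 3.58.1), each library left out, and 4 libraries left out. No pair of libraries held identical counts.

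The members and lists were chosen with earlier results of these data known. All members and regulators found are named, with the 5 largest changes past the threshold in each direction of every other list (mean of at least 1 CPM) and 7 textbook target names.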

Additional observations from a re-analysis of the deposited data

Results flagged for a closer look

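Libraries far from their group were sought by Dixon's test at the 95% level on log2 CPM in 24 groups (12 IDs in each group of libraries), a level at which chance flags about 1 in 20. ARNT2 had 59.8 CPM in brain tumor 13, with a gap to the next tumor of 0.685 of the group's range. ARNT2 had 185 CPM (184.7) in normal brain 4, the lowest normal value, with a gap of 0.571 of the range. EGLN3 had 14.1 CPM in normal brain 1, where the other 7 lay between 2.98 and 4.30 CPM, with a gap of 0.775 of the range. Neither ARNT2 value ended the call, since its log2 fold change was between -1.27 and -1.02 with any library left out.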

How the results depend on the processing

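With median-ratio factors or DESeq2, 1 member was higher in place of 4, and without brain tumor 6 there were 2 lower in place of 4 (2 to 4 over the fits that left out 1 library). Of the regulators, 7 in place of 12 were higher with median-ratio factors, with DESeq2 or without the 4 libraries (7 to 13 with 1 library left out), and 4 glycolytic targets in place of 7 with limma-voom. Beside these, 37.7% of all genes were higher with median-ratio factors and 36.7% with DESeq2. The EPAS1 ratio was 0.79 without the 4 libraries and no longer passed. The ratio of ARNT2 to arnt ran between -0.58 and -0.18 with 1 library left out and passed without brain tumor 8. With 1 library left out vhl lay between -0.124 and 0.015, above 0 without normal brain 3 (0.01) and without brain tumors 5, 7 or 12 (0.015, 0.013 and 0.004). SIRT1 turned to -0.098 with median-ratio factors and -0.102 with DESeq2, and lay between -0.035 and 0.179 with 1 library left out, below 0 without normal brain 1, 2 or 4 or brain tumor 8 (-0.03, -0.035, -0.002 and -0.015). tfa was at 0.35 without the 4 libraries. The causes were not tested. EGLN3, arnt and ARNT2 passed in all fits. Of the counts and ratios, 361 values under an alternative held and 11 moved or changed their side of the threshold. A count was taken to hold within a factor of 1.5, so a held count may still have gained or lost IDs. Of the single genes, 1473 held, 82 no longer passed, 16 passed newly and 11 turned sign. No paired analysis was possible because the labels give no pairing. Depth limits the genes near or below 1 CPM in a group, such as ca9, vhll, NDRG1 ENSDARG00000010420 and STC2 ENSDARG00000102206.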
